A study of Mus musculus with 16 samples.

Results

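The 9 genes described here carry out antigen presentation by MHC class I or belong to its immediate setting: B2m, H2-K1, H2-D1, Tap1, Tap2, Tapbp, Psmb8, Psmb9 and Icam1. They were chosen by name, as every gene probe of the array whose gene name in the raw files equals a member. That gave 17 of the 41174 gene probes, and all 17 were among the 34289 probes tested. B2m and H2-K1 had 3 probes each, H2-D1, Tapbp, Psmb8 and Icam1 had 2 each, and Tap1, Tap2 and Psmb9 had 1 each. The probes were kept apart, because class I genes differ in sequence between mouse strains.

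A class I molecule is a heavy chain, encoded by H2-K1 or H2-D1 among others, held by the light chain beta-2 microglobulin, the product of B2m. Its peptides are cut by the proteasome, whose interferon-induced form carries the catalytic subunits encoded by Psmb8 and Psmb9, are pumped into the endoplasmic reticulum by the Tap1-Tap2 transporter and are loaded with the help of tapasin, encoded by Tapbp. Icam1 is the adhesion ligand of the leukocyte integrin LFA-1 and is induced, like the class I genes, by interferon-gamma and NF-kappaB. Mouse embryonic stem (ES) cells are known for little class I at their surface. NOD mice, which develop autoimmune diabetes, carry the d allele of H2-K1 and the b allele of H2-D1, and 129 mice carry the b allele of both.

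The series compared NOD pluripotent lines in the ES state and in a state like that of epiblast stem cells (EpiSC), which are derived from the post-implantation epiblast, with lines of other strains. RNA was hybridised to 16 arrays of 1 colour in 7 groups. The NOD groups were NOD ES (3 arrays, labelled 4K, 43 KP/CH and 85 KP), NOD EpiSC-like ES (4 arrays, all line 1, passages 7, 10, 5 and 9) and NOD EpiSC-like iPS (2 arrays, line 6, passages 7 and 12), an induced pluripotent line. The non-NOD groups were EpiSC (2 arrays, passages 12 and 20), EpiSC iPS (2 arrays, labelled 3M and 1K), 129 ES under the label mESM (2 arrays, passage 8) and 129 ES under the label epiESM (1 array, passage 8). Arrays below are named in this order as replicates of their group. The marks 4K, 43 KP/CH, 85 KP, 3M, 1K, mESM and epiESM are not explained in the labels and may stand for treatments, introduced factors or media. The strain of EpiSC and EpiSC iPS is given only as non-NOD. Each EpiSC-like group was 1 line, so p-values do not measure the spread between independently derived EpiSC-like lines. The fit shared 1 estimate of spread over all 7 groups, so p-values also rest on the spread within NOD ES and EpiSC iPS. For B2m probe A_51_P129012 the SD of the log2 values was 1.36 in EpiSC iPS and 0.59 in NOD ES. It was 0.44 in EpiSC-like iPS, 0.21 in EpiSC-like ES, 0.08 in EpiSC and 0.05 in mESM. The labels give the 2 mESM arrays 1 source name, and they may be repeat arrays of 1 culture (SD of their log2 difference 0.20). Per the labels, ES cells were freed of feeder fibroblasts by preplating and EpiSC and EpiSC-like colonies were separated by hand, a difference in handling that cannot be told apart from the state.

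The labels were set against defining markers. The naive marker Zfp42 was well above background on all 8 ES and EpiSC iPS arrays, at 4.51 or more, and on 1 of the 8 EpiSC and EpiSC-like arrays. Of 12 measured naive markers, 10 fell in the NOD EpiSC-like lines against NOD ES. Pou5f1, the gene that defines pluripotent cells, stood at 0.27 to 0.89 in EpiSC, at -1.52 to -0.62 in the NOD EpiSC-like ES line and at -4.42 to -3.40 in the NOD EpiSC-like iPS line, where it was well above background on 1 of 2 arrays. Of 12 primed epiblast markers, 7 rose and 3 fell in the NOD EpiSC-like lines against NOD ES (all probes 15.2% and 20.9%). Against EpiSC, 9 were lower and 0 higher (all probes 7.11% and 6.75%). Their summed level was 12.5 to 13.4 in the EpiSC-like iPS line and 30.6 to 35.6 in the EpiSC-like ES line. It was 22.7 to 29.8 in NOD ES and 110 to 111 in EpiSC. On the iPS line's 2 arrays 10 to 11 of the 12 were well above background, and the early mesoderm gene T was on neither. All 8 pluripotency core genes fell against NOD ES. Between 26.3% (NOD ES replicate 1) and 88.5% (EpiSC-like ES replicate 2) of gene spots per array were well above background. EpiSC iPS replicate 2 had 40.5%. NOD ES replicate 1 and the EpiSC iPS arrays were on slide 6, which held no other array. EpiSC iPS shared no slide with EpiSC or mESM. A pair of arrays lay nearer to another group than to their own: NOD ES replicate 1, nearest to EpiSC iPS replicate 1 (SD of the log2 difference 0.70, against 1.13 and 1.15 to the other NOD ES arrays), and EpiSC iPS replicate 2, nearest to NOD ES replicates 2 and 3 (0.39 and 0.40, against 0.96 to its own partner). Both stayed in their labelled groups, and the main member results and list counts are also given without them.

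Promoters of 6 members are shown first, because class I genes are known to be induced through NF-kappaB and interferon elements there. The files hold no probe sequences, so the letters below are promoter sequence from RefSeq (GRCm38.p6, the C57BL/6J reference and not NOD), 5′ to 3′ on the gene's strand, ending at or before the gene start. Matches on both strands were counted in 32851 promoter windows of 300 bases that span a gene start, in which overlapping motifs were counted separately. In the first pair the capitals mark the enhancer A element, an NF-kappaB site, and then the interferon-type element GAANNGAAA read on the other strand.
H2-K1 (chr17:34000388-34000487, minus strand): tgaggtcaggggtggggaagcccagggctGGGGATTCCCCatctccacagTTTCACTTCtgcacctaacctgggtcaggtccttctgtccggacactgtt
H2-D1 (chr17:35262904-35263003, plus strand): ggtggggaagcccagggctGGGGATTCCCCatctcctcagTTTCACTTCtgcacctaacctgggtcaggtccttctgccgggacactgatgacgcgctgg

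The enhancer A element, in the letters shown, occurred in 10 of the 32851 windows (0.0304%). These were the windows of H2-D1, H2-K1 (2 windows), the class I gene H2-Q6 and 6 genes outside the class I family, Aipl1, Atg16l2, Meig1, Pdzd2, Tfap2d and Zfp385b. The 9-letter interferon-type element was more common, with a match in 7.52% of windows. In B2m the capitals mark a longer interferon-type match, a pair of GAAA with 2 bases between (3.44% of windows), followed by a match to the NF-kappaB consensus (8.46% of windows). In Icam1 they mark the short NF-kappaB match GGAANTTCC (0.928% of windows), 153 bases before the gene start.
B2m (chr2:122147507-122147606, plus strand): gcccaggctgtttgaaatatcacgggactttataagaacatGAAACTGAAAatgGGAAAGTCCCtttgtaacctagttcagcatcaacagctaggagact
Icam1 (chr9:21015775-21015939, plus strand): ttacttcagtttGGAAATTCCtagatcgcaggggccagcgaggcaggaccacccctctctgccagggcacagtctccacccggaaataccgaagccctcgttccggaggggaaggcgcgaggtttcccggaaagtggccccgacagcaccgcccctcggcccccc
Tap1 and Psmb9 start 225 bases apart on opposite strands, so 1 short stretch lies between the start of a transporter subunit and that of a proteasome subunit. It is shown whole on the strand of Tap1, with a CCAAT match (37.4% of windows) in capitals.
Tap1 to Psmb9 (chr17:34187331-34187555): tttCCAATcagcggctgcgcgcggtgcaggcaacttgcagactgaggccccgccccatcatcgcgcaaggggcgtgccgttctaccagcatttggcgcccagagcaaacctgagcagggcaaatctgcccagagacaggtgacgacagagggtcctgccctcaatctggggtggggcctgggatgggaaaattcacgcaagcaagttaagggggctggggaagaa
The windows of Tap1, Psmb9, Tapbp and Psmb8 held no match to the NF-kappaB motifs or to either interferon-type motif above. That of Icam1 held none to those interferon-type motifs. The gamma-activated site motif TTCNNNGAA (8.3% of windows) was also searched. It matched in Psmb8, 97 bases before the gene start, and in Icam1, 42 bases before it, where it is not in capitals above. A match describes letters in a window and not a bound site.

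In the results below a level is the processed signal of a probe on the log2 scale, relative to the 75th percentile of its array, so a level of 0 is the brightness at that percentile and a difference of 1 is 1 doubling. A probe's level was not set against another probe's. A call is an adjusted p under 0.05 in limma over all tested probes, and "rose", "fell", "higher" and "lower" in counts refer to calls.

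Among NOD lines, most member probes were higher in the lines labelled EpiSC-like than in NOD ES. Of the 17 member probes, 15 rose against NOD ES, covering all 9 genes, and 0 fell, where 36.1% of all tested probes were called, 15.2% higher and 20.9% lower. The median log2 difference was 2.02 over the members and -0.28 over all probes. Other scalings moved the share of higher probes among all calls from 42.1% to between 51.2% and 61.4% and, under normexp, the median of all probes to 0.68. The largest differences were those of B2m, H2-K1, H2-D1 and Psmb8. All 3 B2m probes, all 3 H2-K1 probes, H2-D1 probe A_51_P496996 and both Psmb8 probes kept their call in each of the 27 alternative analyses. With both arrays of doubtful label left out, 15 probes rose and 1 fell, where 22.8% and 27.1% of all probes did (49.9% in all). On slide 4, which held EpiSC-like ES passage 10 and NOD ES replicates 2 and 3, 15 of 17 probes lay above 0, with a median of 2.0 (all probes 0.06).

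**Figure D1:**
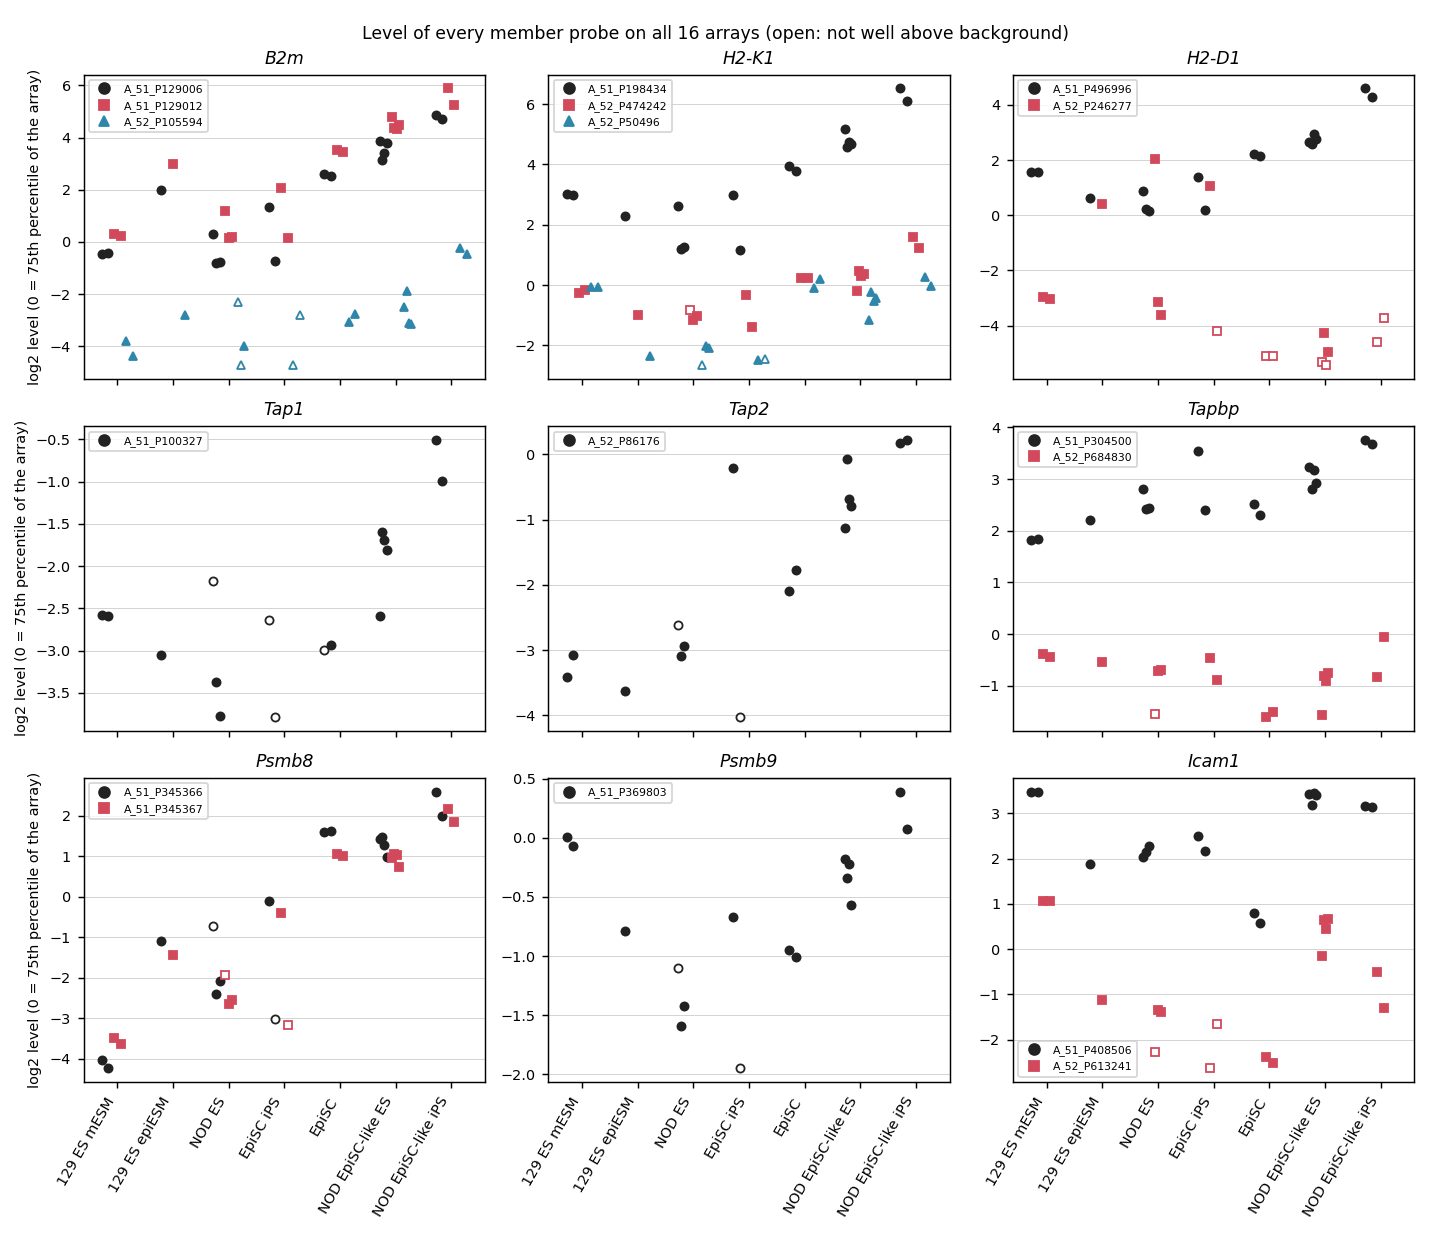
Level of each of the 17 member probes (y axis, log2, 0 at the array's 75th percentile) on the 16 arrays, by group (x axis), 1 panel a gene, 1 point an array and 1 colour a probe; open points were not well above background. B2m probe A_51_P129012 lay between 4.31 and 5.88 on the 6 NOD EpiSC-like arrays and between 0.15 and 1.18 on the 3 NOD ES arrays.

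B2m encodes the light chain that every class I molecule needs. Probe A_51_P129012 stood at 1.18, 0.15 and 0.17 in NOD ES replicates 1 to 3 and at 0.28 and 0.22 in 129 mESM. It reached 3.54 and 3.43 in EpiSC, 4.78, 4.38, 4.31 and 4.47 in the EpiSC-like ES line and 5.88 and 5.26 in the EpiSC-like iPS line. The epiESM array stood at 2.98, and EpiSC iPS was split, with 2.07 and 0.15 in replicates 1 and 2. All 8 EpiSC and EpiSC-like arrays were above all other arrays. The level fell in the order EpiSC-like iPS, EpiSC-like ES, EpiSC, epiESM, EpiSC iPS, NOD ES and mESM, and the ranges of the last 3 groups overlapped.

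Against NOD ES, B2m rose in the NOD EpiSC-like lines by 4.53 (SE 0.39, adjusted p = 6.38e-06) on A_51_P129012, a 23.1-fold difference. The 10-spot probe A_51_P129006, whose repeat spots on 1 array had a median SD of 0.06, gave 4.58 (SE 0.41, adjusted p = 8.49e-06). Without the doubtful arrays these became 4.87 (adjusted p = 9.94e-08) and 4.94 (adjusted p = 9.91e-08). B2m also rose in EpiSC against 129 mESM, by 3.23 (SE 0.54, adjusted p = 0.00155) on A_51_P129012 and by 3.02 (SE 0.57, adjusted p = 0.0032) on A_51_P129006. Whether the rise differed between NOD and non-NOD lines was not shown, with a difference of rises of 1.30 (SE 0.66, adjusted p = 0.262) on A_51_P129012 that became 1.63 (adjusted p = 0.00283) without the doubtful arrays. The third probe, A_52_P105594, is annotated in the files to a cDNA of unclassifiable product. It ranged from -4.72 to -2.32 over NOD ES and mESM, and rose by 2.17 (SE 0.55, adjusted p = 0.00862) in the NOD comparison. In the non-NOD comparison it gave 1.18 (SE 0.76, adjusted p = 0.289) and was not called.

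Markers of other cell types differed between the same groups. The summed level of 20 fibroblast markers was 753 to 1080 in the EpiSC-like ES line, 845 to 894 in the EpiSC-like iPS line and 478 to 535 in EpiSC, against 120 to 471 in NOD ES and 54.9 to 59.98 in mESM, while EpiSC iPS spanned 121 to 1240. In the NOD comparison and in that of EpiSC with mESM, 16 of the 20 rose and 0 fell. The summed level of 14 leukocyte markers was 201 to 241 in the EpiSC-like iPS line and 102 to 135 in the EpiSC-like ES line, against 9.06 to 14.9 in NOD ES, 6.78 to 6.97 in mESM and 1.92 to 2.47 in EpiSC. In the NOD comparison 8 of the 14 rose and 0 fell, and 4 fell and 0 rose in EpiSC against mESM. Lyz2, a macrophage and granulocyte lysozyme, made up most of that sum, at 6.55 to 7.66 on the 6 EpiSC-like arrays. Ptprc, which encodes the pan-leukocyte antigen CD45, was well above background on all 6 of these arrays and on none of the other 10. The myeloid gene Tyrobp stood at 2.30 to 2.80 in the iPS line and -0.04 to 0.68 in the ES line, and at -2.16 or less elsewhere. In EpiSC, 7 of the 14 leukocyte markers were well above background on replicate 1 and 11 on replicate 2. Ptprc, Tyrobp and the lymphocyte gene Cd52 were above it on neither array. Fibroblasts and macrophages express class I genes and Icam1, and their part in the results was not tested. In these bulk cultures, fewer cells of a type and less RNA per cell cannot be told apart.

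**Figure D2:**
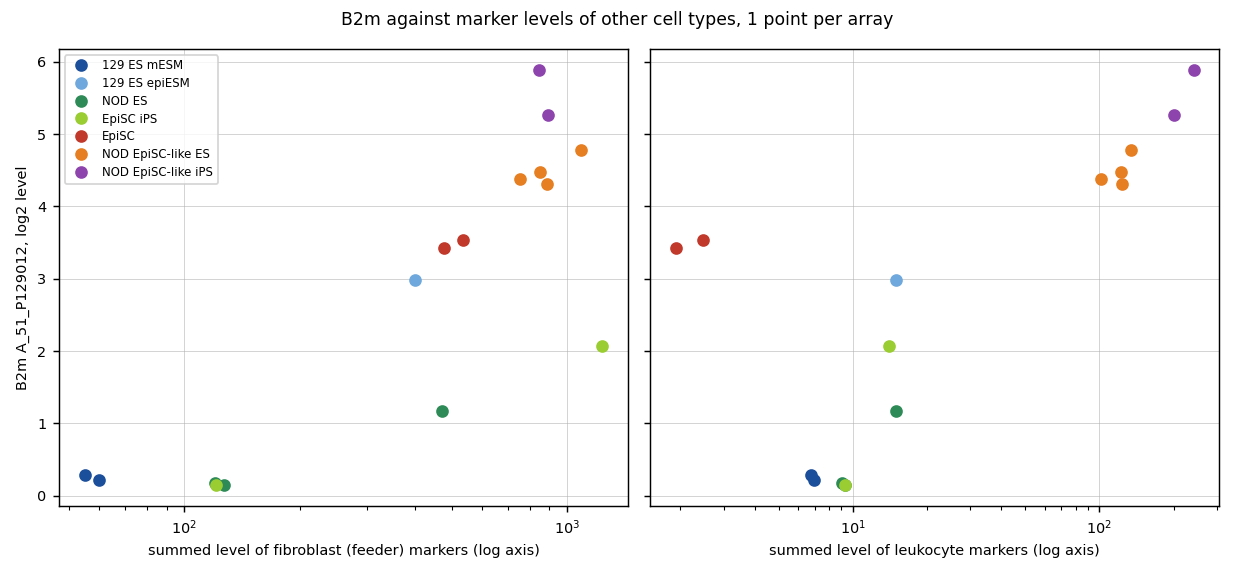
Level of B2m probe A_51_P129012 (y axis, log2) against the summed level of fibroblast markers (left) and of leukocyte markers (right) on log axes, 1 point an array, coloured by group. The 2 EpiSC arrays have B2m at 3.43 and 3.54 with the lowest leukocyte sums (1.92 and 2.47). EpiSC iPS replicate 1 has the highest fibroblast sum (1240) with B2m at 2.07, and replicate 2 has 121 with 0.15. NOD ES replicate 1 has a fibroblast sum of 471 with B2m at 1.18, and replicates 2 and 3 have 127 and 120 with 0.15 and 0.17. The epiESM array has 400 with 2.98, and the mESM arrays have 54.9 and 59.98 with 0.28 and 0.22. The part of other cell types was not tested.

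H2-K1 and H2-D1 encode the classical class I heavy chains, which display the peptide. H2-K1 probe A_51_P198434 stood at 2.62, 1.20 and 1.25 in NOD ES, 5.18, 4.58, 4.73 and 4.69 in the EpiSC-like ES line and 6.52 and 6.11 in the EpiSC-like iPS line. The non-NOD arrays read 3.03 and 3.00 in mESM, 2.28 in epiESM, 3.96 and 3.79 in EpiSC and 2.98 and 1.16 in EpiSC iPS. The NOD EpiSC-like arrays were above all others, and mESM lay above every NOD ES array. H2-K1 rose in the NOD EpiSC-like lines by 3.86 (SE 0.41, adjusted p = 2.84e-05), 14.5-fold, and by 4.33 (adjusted p = 1.59e-07) without the doubtful arrays. The EpiSC arrays lay above the mESM arrays, but the difference of 0.86 (SE 0.57, adjusted p = 0.305) was not called; without the doubtful arrays it was, at an adjusted p of 0.0118. The NOD difference exceeded the non-NOD one by 3.00 (SE 0.70, adjusted p = 0.0208). That call was lost in 8 of the 27 alternatives, among them without either EpiSC array, either mESM array or NOD ES replicate 3 (2.78 to 3.09, adjusted p = 0.0502 to 0.0934).

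H2-D1 probe A_51_P496996 followed the same order of groups in the EpiSC and EpiSC-like lines. It read 0.88, 0.22 and 0.16 in NOD ES, 2.64, 2.57, 2.96 and 2.75 in the EpiSC-like ES line and 4.60 and 4.29 in the EpiSC-like iPS line. In non-NOD lines it read 1.57 and 1.58 in mESM, 0.61 in epiESM, 2.23 and 2.16 in EpiSC and 1.40 and 0.20 in EpiSC iPS. All 6 NOD EpiSC-like arrays were above all other arrays. H2-D1 rose in the NOD comparison by 3.16 (SE 0.27, adjusted p = 6.06e-06), 8.96-fold, and by 3.39 (adjusted p = 1.4e-07) without the doubtful arrays. It gave 0.62 (SE 0.37, adjusted p = 0.262) between EpiSC and mESM, which was not called. The NOD difference exceeded the non-NOD one by 2.55 (SE 0.46, adjusted p = 0.00624), a call lost under normexp (1.05, adjusted p = 0.479) and with slide as a fixed term (2.73, adjusted p = 0.123).

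The 3 H2-K1 probes gave different calls where strains were compared; the difference between probes was not tested. H2-K1 probe A_51_P198434 was higher in the NOD EpiSC-like lines than in EpiSC, by 1.68 (SE 0.47, adjusted p = 0.0371), while H2-K1 probe A_52_P50496 gave -0.29 (SE 0.27, adjusted p = 0.489) and A_52_P474242 gave 0.58 (SE 0.28, adjusted p = 0.196), neither called. A_52_P50496 stood at -0.06 and -0.06 in mESM and -0.08 and 0.18 in EpiSC, within the range of the NOD EpiSC-like arrays (-1.15 to 0.27), but at -2.66, -2.01 and -2.10 in NOD ES, -2.50 and -2.46 in EpiSC iPS and -2.34 in epiESM. This low group was not one strain, since it held 129 cells under the epiESM label, and the epiESM array lay below both mESM arrays, with a difference of -2.28 (SE 0.40, adjusted p = 0.0155). Within NOD, where a strain difference between the lines does not enter, the 3 H2-K1 probes agreed in direction, with 1.82 (SE 0.25, adjusted p = 0.00015) on A_52_P474242 and 2.02 (SE 0.23, adjusted p = 5.23e-05) on A_52_P50496.

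**Figure D3:**
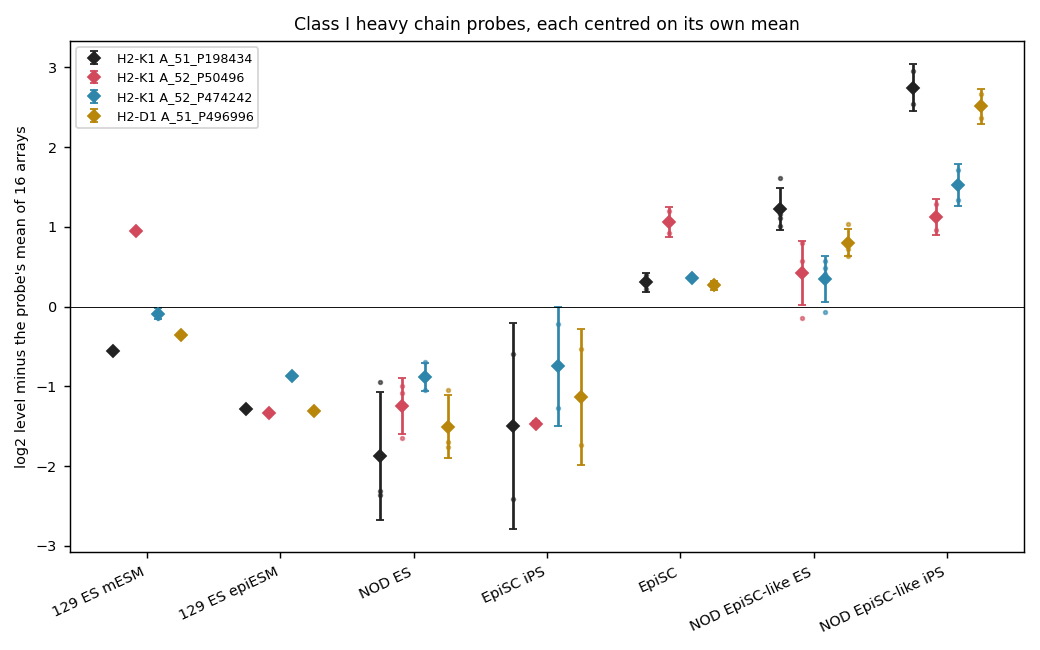
Level of 3 H2-K1 probes and of H2-D1 probe A_51_P496996, each minus its own mean over the 16 arrays (y axis, log2), by group (x axis); dots are arrays, diamonds group means and bars SD (epiESM is 1 array). A_52_P50496 places mESM and EpiSC beside the NOD EpiSC-like groups, while A_51_P198434 places both below them.

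The other probe named H2-D1, A_52_P246277, is described in the files as the thymus-leukemia antigen mRNA, and its position (mm7 chr17:34358688-34358747) lies apart from that of A_51_P496996 (mm7 chr17:33361850-33362082). It read 2.02, -3.13 and -3.60 in NOD ES, 1.06 and -4.21 in EpiSC iPS, 0.39 in epiESM and -2.95 and -3.04 in mESM. NOD ES replicate 1, EpiSC iPS replicate 1 and epiESM were thus high, and the other NOD ES, EpiSC iPS and 129 arrays low. On the 8 EpiSC and EpiSC-like arrays it ranged from -5.43 to -3.73 and was well above background on 2. The NOD difference was -3.02 (SE 1.27, adjusted p = 0.0887) with all arrays and -1.22 (adjusted p = 0.0133) without the doubtful ones, the 1 member probe that then fell.

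Tap1 and Tap2 form the transporter that brings peptides to the heavy chains. Tap2 probe A_52_P86176 read -2.61, -3.09 and -2.94 in NOD ES, -1.13, -0.07, -0.69 and -0.78 in the EpiSC-like ES line and 0.17 and 0.22 in the EpiSC-like iPS line. In non-NOD lines it read -3.41 and -3.08 in mESM, -3.62 in epiESM and -2.10 and -1.77 in EpiSC. EpiSC iPS replicate 1 was at -0.21, among the NOD EpiSC-like values, and replicate 2 was at -4.02 and not well above background. Tap2 rose in the NOD comparison by 2.64 (SE 0.63, adjusted p = 0.00608), with no overlap between the groups, and lost the call with slide as a fixed term (3.58, adjusted p = 0.139). The rise was 2.78 (adjusted p = 1.47e-05) without the doubtful arrays. Between EpiSC and mESM the difference was 1.31 (SE 0.87, adjusted p = 0.304), not called, and without the doubtful arrays 1.31 (adjusted p = 0.00742).

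Tap1 probe A_51_P100327 read -2.18, -3.37 and -3.77 in NOD ES, where the highest value was not well above background, -2.59, -1.59, -1.69 and -1.81 in the EpiSC-like ES line and -0.51 and -0.99 in the EpiSC-like iPS line. The non-NOD arrays ranged from -3.78 to -2.58, with both EpiSC iPS arrays not well above background. The NOD groups overlapped through NOD ES replicate 1 and EpiSC-like ES replicate 1. Tap1 rose in the NOD comparison by 1.77 (SE 0.38, adjusted p = 0.00342) and by 2.23 (adjusted p = 9.47e-05) without the doubtful arrays. The call was lost under normexp background correction (1.04, adjusted p = 0.102) and in the deposited value table (0.65, adjusted p = 0.148). EpiSC and mESM differed by -0.38 (SE 0.53, adjusted p = 0.634).

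Tapbp, the peptide-loading bridge between transporter and heavy chain, had the smallest called difference of the 9 genes. Probe A_51_P304500 read 2.80, 2.42 and 2.43 in NOD ES, 3.23, 2.80, 3.17 and 2.93 in the EpiSC-like ES line and 3.76 and 3.69 in the EpiSC-like iPS line. The NOD groups did not overlap but met at 2.80 to 2 decimals. The rise of 0.83 (SE 0.24, adjusted p = 0.0195) was lost in 5 of the 27 alternatives, namely with slide as a fixed term (0.62, adjusted p = 0.414), without EpiSC-like iPS replicate 1, NOD ES replicate 2 or NOD ES replicate 3 (0.76 to 0.81), and under normexp, where it turned to -0.35. It was 0.95 (adjusted p = 0.000365) without the doubtful arrays. The other probe, A_52_P684830, gave 0.26 (SE 0.28, adjusted p = 0.506) in the same comparison and -0.02 (adjusted p = 0.968) without those arrays.

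Psmb8 and Psmb9 encode catalytic subunits that replace Psmb5 and Psmb6 in the immunoproteasome. Psmb8 probe A_51_P345367 read -1.93, -2.64 and -2.55 in NOD ES, where the first value was not well above background, 0.96, 1.04, 1.02 and 0.74 in the EpiSC-like ES line and 2.17 and 1.85 in the EpiSC-like iPS line. In non-NOD lines it read -3.49 and -3.63 in mESM, -1.45 in epiESM, 1.04 and 0.99 in EpiSC and -0.41 and -3.16 in EpiSC iPS. The 8 EpiSC and EpiSC-like arrays (0.74 to 2.17) did not overlap the ES and EpiSC iPS arrays (-3.63 to -0.41). Psmb8 rose in the NOD comparison by 3.85 (SE 0.46, adjusted p = 6.36e-05), 14.4-fold, and between mESM and EpiSC by 4.58 (SE 0.64, adjusted p = 0.00053), 23.9-fold. Probe A_51_P345366 gave 3.52 (SE 0.55, adjusted p = 0.000411) and 5.74 (SE 0.76, adjusted p = 0.000392). The NOD rises were 4.07 (adjusted p = 5.43e-08) and 4.03 (adjusted p = 3.59e-07) without the doubtful arrays. The difference between the NOD and non-NOD rises, with all arrays, was not called on either probe (-0.73, adjusted p = 0.64, and -2.22, adjusted p = 0.17). Without the doubtful arrays it stayed below 0 on both Psmb8 probes. In that fit 15 of the 17 member probes were above 0, and 1 was called lower. On both Psmb8 probes the non-NOD call was lost with slide as a fixed term (adjusted p = 0.0685 and 0.102). EpiSC and mESM shared no slide.

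Psmb9 did not follow Psmb8 in the non-NOD lines. Probe A_51_P369803 read -1.10, -1.59 and -1.43 in NOD ES, -0.18, -0.34, -0.22 and -0.57 in the EpiSC-like ES line and 0.39 and 0.08 in the EpiSC-like iPS line, with no overlap. In mESM it stood at 0.01 and -0.07, above EpiSC at -0.95 and -1.01. It rose by 1.33 (SE 0.26, adjusted p = 0.00188) in the NOD comparison, and by 1.46 (adjusted p = 2.54e-05) without the doubtful arrays, a rise lost with slide as a fixed term (adjusted p = 0.111). It gave -0.95 (SE 0.36, adjusted p = 0.0838) between EpiSC and mESM. The NOD difference exceeded the non-NOD one by 2.27 (SE 0.44, adjusted p = 0.00917), a call lost in 5 of the 27 alternatives, among them without either mESM array (2.23 and 2.31, adjusted p = 0.0581 and 0.0514). NOD ES was lower than mESM, with a difference of -1.34 (SE 0.33, adjusted p = 0.0318).

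The constitutive subunits went the other way in NOD lines. Psmb5 fell by 1.34 (SE 0.17, adjusted p = 9.28e-05), Psmb6 fell by 1.11 (SE 0.19, adjusted p = 0.000745) and Psmb7 fell by 0.58 (SE 0.19, adjusted p = 0.0304). The third immunoproteasome subunit, Psmb10, was not called at -0.45 (SE 0.31, adjusted p = 0.288). Psme1, an interferon-induced proteasome activator, fell by 0.62 (SE 0.18, adjusted p = 0.0199). Between EpiSC and mESM none of Psmb5, Psmb6 and Psmb7 was called. Psme1 was higher there in EpiSC, by 0.83 (SE 0.25, adjusted p = 0.0363). The difference between the NOD and non-NOD changes was called for Psmb5 (-1.41, adjusted p = 0.0117) and Psmb6 (-1.26, adjusted p = 0.0299). The calls of Psmb5, Psmb6, Psmb7 and Psme1 in the NOD comparison were kept without the doubtful arrays, at -1.37, -1.10, -0.76 and -0.81.

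**Figure D4:**
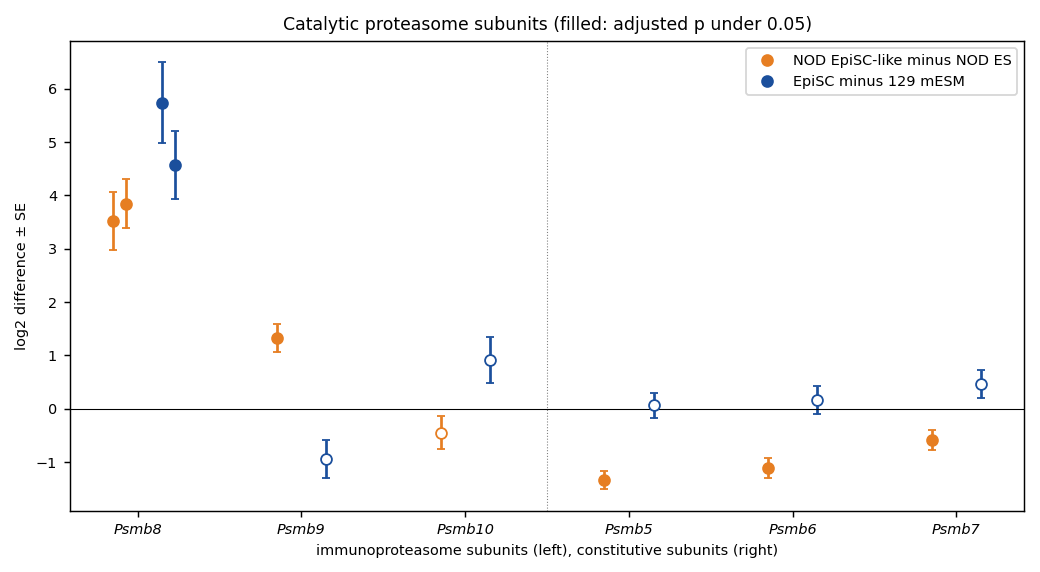
Log2 difference with SE (y axis) of the immunoproteasome subunits Psmb8 (2 probes), Psmb9 and Psmb10 and the constitutive subunits Psmb5, Psmb6 and Psmb7 in the NOD (orange) and non-NOD (blue) comparisons; filled points were called. In the NOD comparison Psmb8 stands at 3.52 and 3.85 and Psmb5 at -1.34.

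Icam1 changed in opposite directions in the 2 settings. The 10-spot probe A_51_P408506 read 2.03, 2.15 and 2.28 in NOD ES, 3.44, 3.20, 3.45 and 3.42 in the EpiSC-like ES line and 3.15 and 3.15 in the EpiSC-like iPS line. In non-NOD lines it read 3.48 and 3.48 in mESM, 1.88 in epiESM, 0.79 and 0.57 in EpiSC and 2.50 and 2.17 in EpiSC iPS. The mESM arrays were the highest and the EpiSC arrays the lowest of all 16. Icam1 rose in the NOD comparison by 1.11 (SE 0.16, adjusted p = 0.000199) and fell between mESM and EpiSC, with a difference of -2.80 (SE 0.22, adjusted p = 1.18e-05). Probe A_52_P613241 gave 1.42 (SE 0.32, adjusted p = 0.00428) and -3.52 (SE 0.44, adjusted p = 0.000264). The NOD difference exceeded the non-NOD one by 3.91 (SE 0.27, adjusted p = 4.24e-05) on the first probe and 4.93 (SE 0.54, adjusted p = 0.000522) on the second, the largest such differences among the members. It lost its call under normexp on the first (2.75, adjusted p = 0.151) and with slide as a fixed term on the second (4.73, adjusted p = 0.052). The NOD rise was lost with slide as a fixed term on both probes (adjusted p = 0.088 and 0.0531) and, on A_51_P408506, under normexp (0.02, adjusted p = 0.978). Both NOD rises were kept without the doubtful arrays, at 1.05 (adjusted p = 6.46e-05) and 1.11 (adjusted p = 0.00556). The non-NOD fall held in each of the 27 alternatives on both probes.

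**Figure D5:**
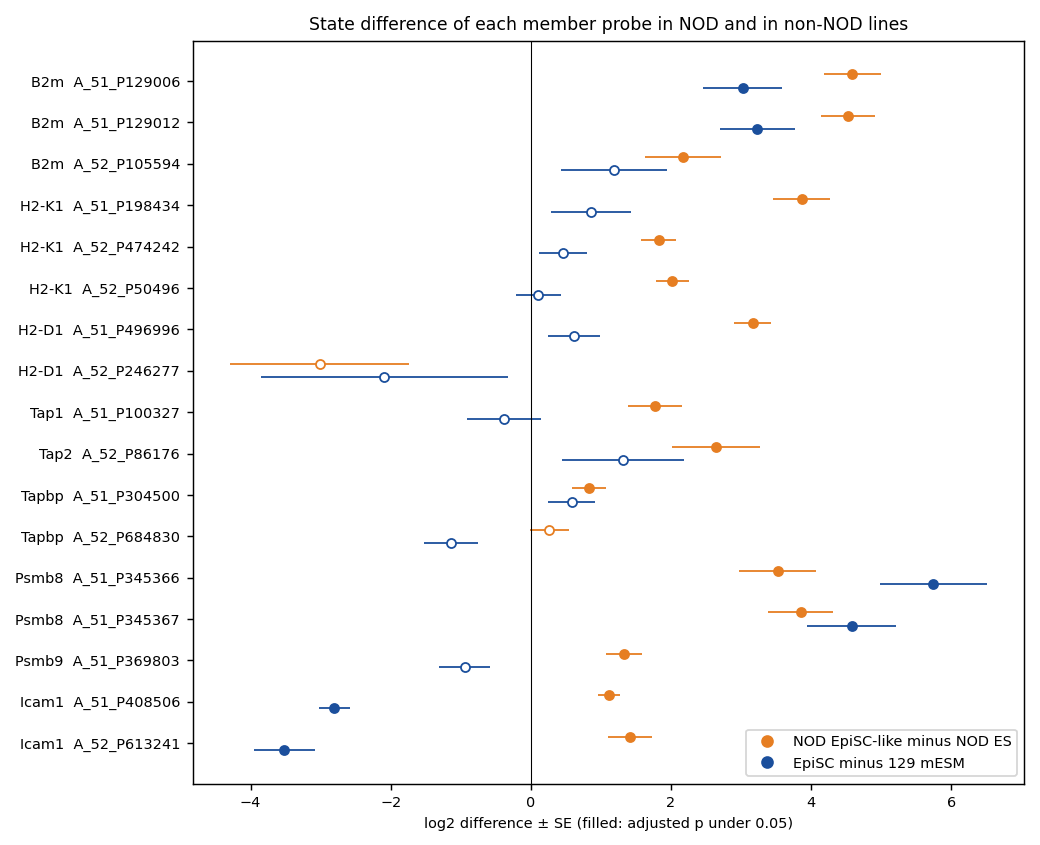
Log2 difference with SE (x axis) of each member probe (y axis) in the NOD comparison (orange) and the non-NOD comparison (blue); filled points were called. B2m and Psmb8 were called higher in both, and Icam1 was called higher in the NOD comparison and lower in the non-NOD one.

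Counted over the members, the non-NOD comparison of EpiSC with mESM called 4 of 17 probes higher (B2m and Psmb8, 2 probes each) and 2 lower (Icam1), where 10.6% and 11.6% of all probes were called (22.2% in all). The member median was 0.58, against -0.33 over all probes. Without the doubtful arrays, which are in neither group but enter the common estimate of spread, 8 were higher and 5 lower (all probes 19.5% and 23.5%, 43.0% in all). The test of the difference between the NOD and the non-NOD change called 6 of 17 probes, all higher in NOD (H2-K1 and Icam1, 2 probes each, H2-D1 and Psmb9), where 4.11% of all probes were called in that direction and 6.12% in the other (10.2% in all). The count was 11 higher and 1 lower without the doubtful arrays (all probes 14.0% and 17.8%, 31.8% in all). It was 3 without either mESM array and 10 without either EpiSC iPS array. Leukocyte markers differed in the same direction, with 8 of 14 called, and of 20 fibroblast markers 1 was higher and 2 were lower; their part was not tested.

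The 2 NOD EpiSC-like lines differed from each other. The iPS line was higher than the ES line on 4 of 17 probes and lower on 1, where 13.7% and 11% of all probes were (24.7% in all), with a member median of 1.01 (all probes 0.26). H2-D1 probe A_51_P496996 was higher by 1.71 (SE 0.32, adjusted p = 0.00313) and H2-K1 probe A_52_P474242 by 1.18 (SE 0.30, adjusted p = 0.0144). H2-K1 probe A_51_P198434 gave 1.52 (SE 0.49, adjusted p = 0.0436), a call that 19 of the 27 alternatives ended, and B2m probe A_52_P105594 gave 2.31 (SE 0.66, adjusted p = 0.0252). Both bright B2m probes were higher on each iPS array than on any ES-line array, but were not called (1.24, adjusted p = 0.0865, and 1.09, adjusted p = 0.109). Icam1 probe A_52_P613241 was lower in the iPS line, with a difference of -1.30 (SE 0.38, adjusted p = 0.0283), and A_51_P408506 gave -0.23 (SE 0.19, adjusted p = 0.396). Without the doubtful arrays 13 were higher and 1 lower (all probes 27.3% and 21.4%, 48.7% in all). Leaving out 1 array moved the count of 5 to between 1 (without iPS passage 12) and 10 (without either EpiSC iPS array). It was 2 without iPS passage 7, EpiSC-like ES passage 5 or EpiSC-like ES passage 9, and 3 without EpiSC-like ES passage 10. Under normexp 0 member probes were called, with H2-K1 A_51_P198434 at -0.24 and H2-D1 A_51_P496996 at -0.20; the median over all probes was then 0.97. On slide 1, which held 1 array of each line at passage 7, 15 of 17 probes were higher in the iPS line, with a median of 1.18. Leukocyte markers were also higher in the iPS line, 10 of 14 called, and 3 of 20 fibroblast markers were lower; their part was not tested.

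Against EpiSC, the NOD EpiSC-like lines were higher on 8 of 17 probes and lower on 0, where 6.75% and 7.11% of all probes were (13.9% in all). Icam1 differed most firmly, by 2.58 (SE 0.18, adjusted p = 2.01e-05) on A_51_P408506 and 2.20 (SE 0.36, adjusted p = 0.00293) on A_52_P613241. H2-D1 A_51_P496996 was higher by 1.39 (SE 0.31, adjusted p = 0.0129) and Tap1 by 1.63 (SE 0.44, adjusted p = 0.031). The Tap1 call was ended by 11 of the 27 alternatives, among them without either EpiSC array, of which replicate 1 was not well above background. B2m A_51_P129012 (1.55, adjusted p = 0.0408), B2m A_51_P129006 (1.60, adjusted p = 0.0435), H2-K1 A_51_P198434 and Tapbp A_51_P304500 (0.96, adjusted p = 0.0416) lay near the threshold, and 13 to 15 of the 27 alternatives ended each of these calls. Both Psmb8 probes overlapped between the groups (0.18, adjusted p = 0.863, and 0.46, adjusted p = 0.58). Without the doubtful arrays 14 probes were higher and 0 lower (all probes 20% and 18.3%, 38.3% in all). Of the arrays left out 1 at a time, EpiSC passage 20 left 1 call, EpiSC passage 12 left 2, and either iPS array, EpiSC-like ES passages 5 or 9, or either mESM array left 3. The count was 4 without EpiSC-like ES passage 7 and 5 without NOD ES replicate 3. Within slides, 16 of 17 probes were above 0 on slide 1 (median 1.39) and 13 of 17 on slide 3 (median 0.80). Leukocyte markers were higher too, 12 of 14 called, and 1 of 20 fibroblast markers was higher; their part was not tested.

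The EpiSC iPS arrays, which lay apart from each other, were lower than EpiSC on 8 of 17 probes and higher on 1, where 8.31% and 10.3% of all probes were (18.6% in all). Lower were H2-K1 (3 probes), B2m and Psmb8 (2 each) and H2-D1; Icam1 A_51_P408506 was higher by 1.66 (SE 0.22, adjusted p = 0.00043). H2-K1 A_52_P50496 gave -2.53 (SE 0.33, adjusted p = 0.000387). Without the doubtful arrays EpiSC iPS was replicate 1 alone, taken to vary as the other groups do. Then 8 probes were lower and 5 higher (all probes 17.1% and 21.7%, 38.7% in all), and Tap2 turned from -0.18 to 1.72 (adjusted p = 0.00644). Without either EpiSC array the count was 2.

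Among ES cells, NOD ES was lower than 129 mESM on 4 of 17 probes and higher on 0, where 2.69% and 4.95% of all probes were (7.64% in all). These were Icam1 A_51_P408506 (-1.33, adjusted p = 0.00401), Icam1 A_52_P613241 (-2.74, adjusted p = 0.00378), H2-K1 A_52_P50496 (-2.20, adjusted p = 0.00257) and Psmb9. Psmb8 lay higher in NOD ES, at 2.40 (SE 0.70, adjusted p = 0.0607) on A_51_P345366, and was not called. Without either mESM array the count was 0, and without either EpiSC iPS array it was 8. Without the doubtful arrays 7 were lower and 3 higher (all probes 8.71% and 14.4%, 23.1% in all). EpiSC iPS was lower than mESM on 4 probes (3.9% of all probes), both of Icam1, H2-K1 A_52_P50496 and Psmb9, and higher on 0 (5.58%, with 9.47% called in all). That count was 2 without either mESM array and 9 without EpiSC iPS replicate 2, and without both doubtful arrays 7 were higher and 4 lower (all probes 18.7% and 16.9%, 35.5% in all). The epiESM array was lower than mESM on 2 probes (1.17%), H2-K1 A_52_P50496 and Icam1 A_51_P408506 (-1.60, adjusted p = 0.0127), and higher on 0 (1.69%, with 2.86% called in all). That count was 0 without either mESM array, 6 without NOD ES replicate 1 and 7 without either EpiSC iPS array; without both doubtful arrays it was 5 higher and 5 lower (all probes 12% and 9.76%, 21.8% in all). These comparisons, the one of EpiSC iPS with EpiSC and the non-NOD state comparison share their mESM or EpiSC arrays. In size of difference, the epiESM array lay above mESM on 7 of the 17 probes. Among these were all 3 B2m probes, by 1.28 to 2.73, and both Psmb8 probes, by 2.12 and 3.04. On the same probes EpiSC lay above mESM by 1.18 to 3.23 for B2m and by 4.58 and 5.74 for Psmb8. The summed level of fibroblast markers was 400 on the epiESM array, against 54.9 and 59.98 on the mESM arrays. The summed level of leukocyte markers was also higher on the epiESM array than on either mESM array. The part of these cell types in the B2m and Psmb8 differences was not tested.

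Other genes of the pathway were counted from lists, with the 9 members set apart. Of all probes, 15.2% rose and 20.9% fell in the NOD comparison, and 10.6% and 11.6% between mESM and EpiSC. Without the doubtful arrays these shares were 22.8% and 27.1%, and 19.5% and 23.5%. Of 15 tested further class I heavy chain genes, 11 rose and 0 fell in the NOD EpiSC-like lines against NOD ES, with a list median of 2.26 (all probes -0.28). With those arrays of doubtful label left out, 13 rose and 0 fell. H2-Q1 rose by 3.52 (SE 0.28, adjusted p = 3.85e-06), H2-Q7 by 3.49 (SE 0.45, adjusted p = 0.000101) and H2-T23, which encodes the non-classical molecule Qa-1, by 2.91 (SE 0.44, adjusted p = 0.000345). Mr1, which presents vitamin metabolites, was well above background on no NOD ES array and was at least 3.05-fold higher (adjusted p = 0.00108). These genes are near-identical in part, so a probe may read several of them. Between EpiSC and mESM 3 of the 15 rose (without the doubtful arrays 6 higher and 1 lower), H2-T10 by 2.51 (adjusted p = 0.0295), H2-T22 by 1.84 (adjusted p = 0.0406) and Mr1, at least 4.36-fold (adjusted p = 0.0128). The NOD change exceeded the non-NOD one in 4 (4.11% of all probes), H2-Q1, H2-Q2, H2-Q7 and H2-M3, by 2.27 to 3.49.

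Of 11 tested genes of peptide supply and loading, 3 rose in the NOD comparison, among them the trimming peptidase Erap1 by 2.20 (SE 0.44, adjusted p = 0.00218) and the tapasin-related Tapbpl by 0.79 (SE 0.26, adjusted p = 0.0306), and 4 fell, which were Psmb5, Psmb6, Psmb7 and Psme1; the counts were again 3 and 4 without the doubtful arrays. Of 22 tested regulators, 5 rose and 5 fell, near the shares of all probes (15.2% and 20.9%). Without the doubtful arrays 9 rose and 6 fell (all probes 22.8% and 27.1%). The NF-kappaB inhibitor gene Nfkbia rose by 1.49 (SE 0.27, adjusted p = 0.00108) and Irf2 was at least 3.23-fold higher (adjusted p = 0.00173). Rfxank, a subunit of the RFX complex of MHC promoters, fell by 1.68 (SE 0.18, adjusted p = 3.49e-05). Irf1 was called neither in the NOD comparison (0.57, adjusted p = 0.295) nor between EpiSC and mESM (-0.32, adjusted p = 0.707). The NOD value averages lines that differed, with Irf1 at 4.36 to 4.61 in the EpiSC-like ES line and 1.70 to 1.98 in the EpiSC-like iPS line, against 1.38 to 3.26 in NOD ES. Nlrc5, the class I transactivator, and Psme2 had no tested probe.

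Of 31 interferon-stimulated genes, 15 rose and 2 fell in the NOD comparison (all probes 15.2% and 20.9%), and 14 rose and 0 fell between mESM and EpiSC (all probes 10.6% and 11.6%). Without the doubtful arrays these counts were 21 and 4 (all probes 22.8% and 27.1%), and 17 and 6 (19.5% and 23.5%). The chemokine gene Cxcl10 rose by 3.96 (SE 0.41, adjusted p = 2.21e-05) in the first and was at least 47.2-fold higher in the second (adjusted p = 2.47e-05). Of 14 tested adhesion and NF-kappaB genes set beside Icam1, 7 rose and 0 fell in the NOD comparison, and 4 rose and 2 fell between mESM and EpiSC (9 and 0, and 6 and 4, without the doubtful arrays). Ccl2 rose by 5.36 (SE 0.40, adjusted p = 2.72e-06) and 5.35 (SE 0.56, adjusted p = 8.37e-05) and Tnfaip3 by 4.02 (SE 0.25, adjusted p = 7.67e-07) and 2.78 (SE 0.34, adjusted p = 0.000246), so these genes rose in EpiSC while Icam1 fell.

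Between the NOD EpiSC-like lines, where 13.7% of all probes were higher and 11% lower in the iPS line, the lists were counted in the same way. In the iPS line 7 of 15 further heavy chain genes were higher and 0 lower than in the ES line, with H2-Q8 higher by 2.10 (SE 0.35, adjusted p = 0.00143) and H2-Q1 by 1.47 (SE 0.34, adjusted p = 0.00874). Of 31 interferon-stimulated genes, 0 were higher and 11 lower (list median -1.14, against 1.33 for the heavy chain genes and 0.26 for all probes). The doubtful arrays are in neither line. When they were left out, 11 heavy chain genes were higher and 1 lower, and 3 interferon-stimulated genes were higher and 21 lower. Of all probes, 27.3% were then higher and 21.4% lower. Cxcl10 was at -5.57 (SE 0.49, adjusted p = 3.51e-05) and Gbp2 at -2.34 (SE 0.34, adjusted p = 0.000696). Irf1, an interferon-induced activator of class I promoters, was at -2.66 (SE 0.47, adjusted p = 0.00227), and Nfkb1 at -1.92 (SE 0.39, adjusted p = 0.00491). The NF-kappaB targets Ccl2 and Tnfaip3 were at -4.37 (SE 0.48, adjusted p = 0.000128) and -3.34 (SE 0.30, adjusted p = 3.74e-05).

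The genes whose level followed a member most closely over the 16 arrays were, for B2m probe A_51_P129012, Gria3 (Pearson r 0.983), Rab11a (0.978), Cd63 (0.976), Rdh10 (0.976) and Rhod (0.975). For Tap1 probe A_51_P100327 they were a class I-like gene listed as LOC56628 (0.950), H2-D4 (0.944), H2-Q5 (0.942), Cd34 (0.937) and Slc50a1 (0.935). For Icam1 probe A_51_P408506 they were Fam161a (0.936), Fgfr4 (0.924), Plxdc1 (0.905), Hsd3b7 (0.899) and BC025076 (0.899). The arrays share lines, slides and scaling, so these values describe likeness of pattern and carry no p.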

How the data were processed

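RNA was hybridised to 16 Agilent arrays of 1 colour, with extraction by column, amplification and Cy3 labelling per the labels' protocols. The authors deposited scanner output whose processed signal is an intensity that the scanner software had already background-subtracted, per the file headers. They also deposited a value table on the log2 scale, whose values track the mean spot signal and were quantile normalized, as found from the values. The submitters' processing notes name limma. From the intensities, control spots and outlier spots were removed, log2 was taken, each array's 75th percentile was subtracted and spots of a probe were averaged. Probes well above background on at least 2 of 16 arrays were tested (34289 of 41174).

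Groups came from the sample titles. One mean per group was fitted over all 16 arrays with limma 3.58.1 (R 4.3.3), with empirical Bayes moderation, and p-values were adjusted by Benjamini-Hochberg over all tested probes. The NOD EpiSC-like mean weighs both lines equally. Where one side was well above background on no array, a bound ("at least") is given: the bright group's mean against the higher of the dim probe's own signal and the lowest signal well above background. The 27 alternatives changed the background correction, scaling, filter, source of values, slide term, samples in the fit or left out arrays. On simulated data with 34289 probes for the NOD comparison, 100 probes were changed by 1 on the log2 scale and 100 by 3. The fit called 14% of the first and 74% of the second. In the data 36.1% of probes were called, so the adjustment differs and these percentages do not give the share of real changes found. The number of arrays limits the precision.

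The members and lists were chosen with earlier results of these data known. All member probes are named. Of each list at most 4 called genes with the largest differences are named per comparison, with a fixed set of proteasome genes and regulators named always. Symbols were updated through RefSeq accessions and names where they matched, and 8455 of 41174 probes kept the name in the files. Promoter sequences are from RefSeq, GRCm38.p6, in which Tap2 had no window. Probe positions are those of the files (mm7). Figures were drawn with matplotlib 3.10.9.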

Additional observations from a re-analysis of the deposited data

Results flagged for a closer look

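Icam1 probe A_51_P408506 on EpiSC-like ES replicate 2 (passage 10) read 3.20, apart from the 3.42 to 3.45 of the other arrays of that line. Its gap was 0.8636 of the group's range. All 17 member probes were tested in this way, and chance gives such a gap in about 1 in 20 groups.

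The change between ES and EpiSC or EpiSC-like state differed between NOD and non-NOD lines in the test of the difference itself for 6 member probes. The differences (NOD minus non-NOD, log2, limma adjusted p) were 3.00 (0.0208) for H2-K1 probe A_51_P198434 and 1.91 (0.0127) for H2-K1 probe A_52_P50496. H2-D1 probe A_51_P496996 gave 2.55 (0.00624) and Psmb9 probe A_51_P369803 gave 2.27 (0.00917). Icam1 gave 3.91 (4.24e-05) on A_51_P408506 and 4.93 (0.000522) on A_52_P613241. The non-NOD side compares EpiSC of a strain given only as non-NOD with 129 ES cells, so strain and state cannot be told apart there. Those 129 ES cells were the mESM arrays alone. On A_52_P50496 the epiESM array read -2.34, against -0.06 on each mESM array, so the difference on this probe depends on which 129 label is used. The call on A_52_P50496 was also lost in 7 of the 27 alternatives.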

How the results depend on the processing

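The call counts below are member probes of 17. The number called among all tested probes moved with the settings as well. It went from 12387 to 9917 under normexp and 8469 with slide fixed in the NOD state comparison. For EpiSC against mESM it went from 7612 to 2612 with slide fixed and 19814 of 34289 with only the groups compared. Between the EpiSC-like lines, that last setting gave 11896 against 8472. With it, the spread in the epiESM comparison came from the 2 mESM arrays alone. The NOD state comparison gave 15, then 12 under normexp, 10 with slide as a fixed term, and 14 to 16 with 1 array left out. EpiSC against mESM gave 6, then 13 without both doubtful arrays, 2 with slide as a fixed term, 16 with only the groups compared, and 6 to 8 with 1 array left out. EpiSC iPS against EpiSC gave 9, then 1 under normexp, 2 with slide fixed, 1 with only the groups compared, and 2 to 11. EpiSC iPS against mESM gave 4, then 0 under normexp, 11 without doubtful arrays, 2 with mESM averaged, 1 with slide fixed, 0 with only the groups compared, and 2 to 9. EpiSC-like iPS against EpiSC-like ES gave 5, then 0 under normexp, 3 with the percentile over detected probes, 14 without doubtful arrays, 1 with slide fixed, 11 with only the groups compared, and 1 to 10. NOD EpiSC-like against EpiSC gave 8, then 1 under normexp, 4 without the filter, 14 without doubtful arrays, 3 with mESM averaged, 3 with slide fixed, and 1 to 10. NOD ES against mESM gave 4, then 1 under normexp, 10 without doubtful arrays, 0 with mESM averaged, 0 with slide fixed, 0 with only the groups compared, and 0 to 8. Among all tested probes the number called there went from 2618 to 32 under normexp and 149 with mESM averaged. It was 0 with slide fixed and 0 with only the groups compared. For EpiSC iPS against mESM the same settings gave 4, 228, 3364 and 0, against 3248. For the NOD minus non-NOD difference they gave 37, 1039, 301 and 5197, against 3505. The epiESM array against mESM gave 2, then 0 under normexp, 1 with quantile normalization, 4 in the deposited table, 4 with the stricter filter, 10 without doubtful arrays, 0 with mESM averaged, 0 with slide fixed, 14 with only the groups compared, and 0 to 7. The NOD minus non-NOD difference gave 6, then 1 under normexp, 12 without doubtful arrays, 3 with mESM averaged, 1 with slide fixed, 10 with only the groups compared, and 3 to 10.

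Directions turned in 6 cases. Under normexp, Tapbp A_51_P304500 was -0.35 in the NOD comparison and -0.27 against EpiSC, and between the EpiSC-like lines H2-K1 A_51_P198434 was -0.24 and H2-D1 A_51_P496996 was -0.20. Tap2 in EpiSC iPS against EpiSC was 1.72 without both doubtful arrays and without EpiSC iPS replicate 2 alone, and -2.09 without EpiSC iPS replicate 1. The causes were not tested. Under normexp 42 of 34289 probes were called between the EpiSC-like lines in all.

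Another scaling moved the share of higher probes among all calls over the 4 scalings tried from 47.7% to between 50.9% and 63.6% for EpiSC against mESM, from 55.4% to between 31.3% and 47.4% for EpiSC iPS against EpiSC, from 58.9% to between 31.7% and 50% for EpiSC iPS against mESM, and from 55.3% to between 2.38% and 46.7% between the EpiSC-like lines. It moved from 64.8% to between 38.6% and 53.1% for NOD ES against mESM, from 59.1% to between 33.7% and 84.2% for epiESM, from 40.2% to between 24.3% and 59.3% for the difference of changes, and from 48.7% to between 39.7% and 54.5% against EpiSC. No paired analysis was possible because the groups compared share no replicate numbers in the labels; slide was used as a block instead, as above. Tap1 was not well above background on NOD ES replicate 1, EpiSC replicate 1 and both EpiSC iPS arrays, and Tap2 on NOD ES replicate 1 and EpiSC iPS replicate 2. List counts without the doubtful arrays were added after seeing the data.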

Other observations

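Other immune gene groups were counted apart from the members. Of all probes, 15.2% rose and 20.9% fell in the NOD comparison (22.8% and 27.1% without the doubtful arrays). Between mESM and EpiSC 10.6% rose and 11.6% fell. Of 7 tested ligands of natural killer cells and inhibitory ligands, 2 were higher and 0 lower in NOD EpiSC-like lines than in NOD ES (3 and 0 without the arrays of doubtful label), and 1 was higher and 1 lower in EpiSC than in mESM. Of 10 class II presentation genes, 3 rose and 0 fell in the NOD comparison (3 and 1 without the arrays of doubtful label). Ctss, a lysosomal protease, rose by 4.92 (SE 0.70, limma adjusted p = 0.000215) there. Of 11 interferon ligand and receptor genes, 6 rose and 1 fell (6 and 3 without those arrays), with the receptor genes Ifngr2 at 2.47 and Ifngr1 at 1.96.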
